A study of Rattus norvegicus with 12 samples.

Results

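INS-1 cells are a rat insulinoma line that makes insulin and serves as a model of the pancreatic β-cell, and the study's methods name a subclone of it as the one used. The comparison described here is that of I-BET762 with its vehicle in resting cells, which received no cytokine. The groups were IB, which received I-BET762 at 500 nM, and VC, which received the vehicle, both kept in medium with 11 mM glucose. All groups share the same single line, a proliferating tumour line, which limits it as a model of the β-cell in the islet. The treatment lasted 48 h before the point at which the other groups received the cytokines IL-1β, IFN-γ and TNF-α. The study also sequenced cells that received these cytokines with I-BET762 (CCIB) or with vehicle (CCVC), giving 12 libraries in 4 groups of 3. The treatment notes, and the paper's account of the sequenced cells, give 8 h of cytokine exposure. The design text instead puts it in the last 24 h of 72 h.

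The members are all genes of the deposited table with a mean of at least 1 FPKM over the 4 groups, which were 8795 of 9694 genes. FPKM scales the number of sequenced fragments to the length of the gene and the size of the library, so every value is relative to the rest of the library. The authors deposited 1 value per group and no library values, and only for genes they had called in some comparison of the 4 groups. No SD, test or p-value can therefore be computed from this table for a difference between IB and VC, and the depth of the libraries is unknown from these values. A gene is called higher or lower where log2((IB + 1)/(VC + 1)), with the values in FPKM, reached 1.5-fold in either direction, and this is a size and not a test. These values come from bulk RNA, so fewer cells of a type and less RNA per cell cannot be told apart.

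BET proteins such as Brd2 and Brd3 hold bromodomains, pockets that bind acetylated lysines on histone tails. Through them the proteins recruit the kinase complex P-TEFb, which releases paused RNA polymerase II into elongation, and they gather at enhancers of genes that define a cell type. I-BET762 fills the acetyl-lysine pocket and displaces the proteins from chromatin, and loss of Myc RNA and gain of Hexim1 RNA are textbook marks of this drug class.

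The line carried its labelled identity in both groups. Of 12 β-cell markers 9 were measured, and their summed level was 20227 FPM in IB and 10820 FPM in VC, where FPM is FPKM times the length of the gene in kilobases. These sums are weighted to the most abundant genes, Ins1 first. Of the 9 markers 7 had a log2 ratio of IB over VC above 0 and 2 below (Slc30a8 and Nkx6-1). Markers of other cells were few: 2 of 12 for other endocrine cells (summing to 1736.5 FPM in IB and 1343 FPM in VC), 4 of 18 for acinar and ductal cells (199.5 and 233.5), 2 of 17 for mesenchyme and endothelium (1491 and 1312) and 2 of 17 for leucocytes (8.39 and 10.2). Glucagon RNA (Gcg) was abundant, at 1239.7 FPKM in IB and 635.9 FPKM in VC, in a line that is named for insulin. Markers with no entry could be silent or uncalled. The part of other cells in the results below was not tested.

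More genes were lower than higher with I-BET762. At 1.5-fold, 436 genes (4.96%) were higher in IB and 921 (10.5%) were lower, while 7438 were neither (84.6%). The median log2 ratio over all genes was -0.04, with 4022 genes above 0 and 4772 below. The middle of the distribution was narrow, from -0.32 at the 25th to 0.20 at the 75th percentile. The tail was longer on the lower side, at -1.43 for the 1st and 0.97 for the 99th percentile. At 2-fold 81 genes were higher and 291 lower, and at 4-fold 7 were higher and 21 lower.

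**Figure D1:**
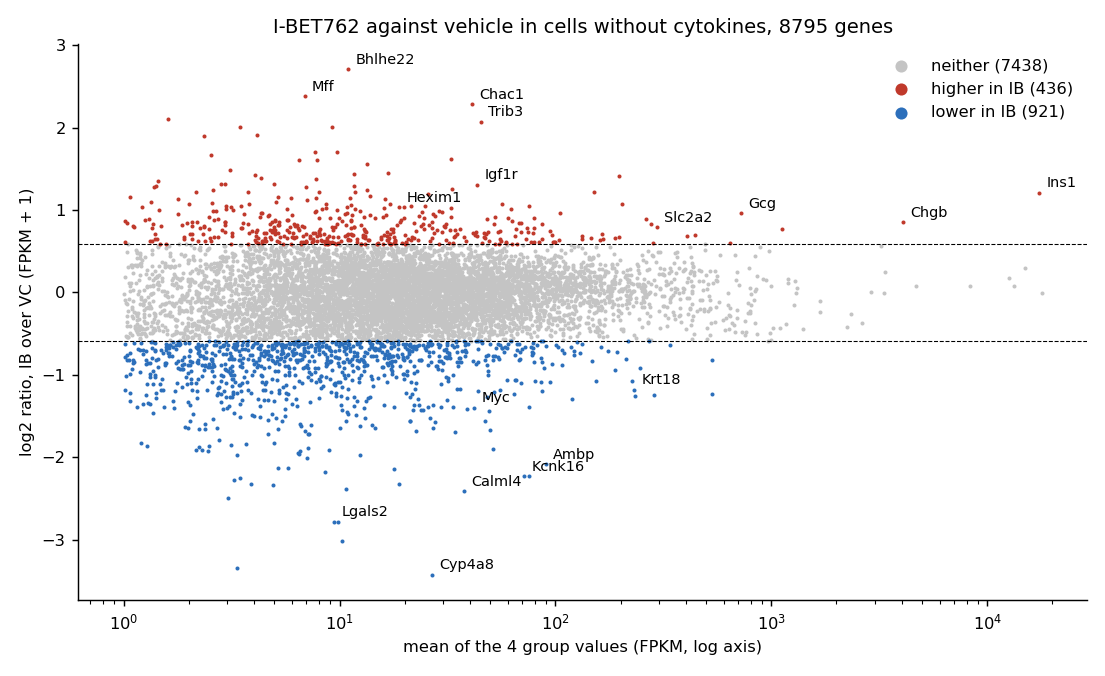
Each point is 1 of 8795 genes, with the mean of the 4 group values on the x axis (FPKM, log scale) and the log2 ratio of IB over VC on the y axis (FPKM + 1). Dashed lines mark 1.5-fold, and the lower genes outnumber the higher ones at 921 against 436, most of all at low levels.

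Promoters are shown for 2 stress-response genes, since these stood near the upper end of this distribution. Each promoter is the RefSeq sequence in GRCr8 from 250 bases before to 50 bases after the start site, written 5′ to 3′ on the gene's strand. Capitals mark the letters TTNCATCA, the composite element that ATF4 and C/EBP factors bind. Both strands were searched. Chac1, an enzyme that degrades glutathione and a known target of the integrated stress response, holds this element in its promoter at chr3:126795881-126796180 on the plus strand.
Chac1: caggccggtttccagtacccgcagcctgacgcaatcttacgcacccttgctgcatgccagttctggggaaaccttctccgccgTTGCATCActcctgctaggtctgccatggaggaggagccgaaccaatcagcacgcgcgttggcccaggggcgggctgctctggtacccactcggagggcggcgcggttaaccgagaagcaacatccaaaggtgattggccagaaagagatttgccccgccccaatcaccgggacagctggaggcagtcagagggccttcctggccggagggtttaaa
Trib3, a pseudokinase of the same response, holds it in the promoter at chr3:161275484-161275783 on the minus strand, nearer to the start site (base -21, against -167 in Chac1).
Trib3: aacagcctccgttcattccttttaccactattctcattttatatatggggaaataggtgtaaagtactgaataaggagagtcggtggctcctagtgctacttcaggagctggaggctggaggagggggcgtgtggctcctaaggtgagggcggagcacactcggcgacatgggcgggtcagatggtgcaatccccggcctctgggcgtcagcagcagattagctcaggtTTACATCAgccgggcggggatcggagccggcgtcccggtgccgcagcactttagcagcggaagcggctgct
Among 27457 RefSeq promoters of rat genes, 3.82% hold this element. Of 45 measured genes of the integrated stress response and amino acid supply, 41 had a promoter in the table and 13 of them hold it (31.7%). Of those 13, Chac1 and Trib3 passed 1.5-fold, both upward. Over the 45 genes 8 passed upward (17.8%), beside 4.96% of all genes. The 2 promoters shown were chosen after the values were seen. A match is a description of letters, and a share by direction is not given because only 76.8% of the measured genes could be matched to a promoter, under the 80% set as needed.

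The genes with the largest ratios upward were of mixed kind. Bhlhe22, a neural basic helix-loop-helix repressor, was at 27.1 FPKM in IB and 3.30 FPKM in VC, the largest log2 ratio among named genes that reached 5 FPKM (2.71). Mff, which recruits the fission GTPase to mitochondria, was at 15.97 FPKM in IB and 2.26 FPKM in VC (2.38). Chac1 and Trib3 came next, at 26.5 and 27.7 FPKM in IB, against 4.65 and 5.83 FPKM in VC. Itpkb, an inositol trisphosphate kinase, was at 24.7 FPKM in IB and 5.37 FPKM in VC (2.01). Receptors and secreted factors were also present in this set. The neurotrophin receptor gene Ngfr was at 5.79 FPKM in IB and 1.23 FPKM in VC, and Igf1r, the receptor of insulin-like growth factor 1, was at 42.0 FPKM in IB and 16.4 FPKM in VC. Plat, the tissue plasminogen activator, was at 7.82 FPKM in IB and 2.25 FPKM in VC, and Tgfb1 was at 6.04 FPKM in IB and 1.69 FPKM in VC. Runx1, a transcription factor of blood development, was at 26.6 FPKM in IB and 10.3 FPKM in VC. RragB, a GTPase of amino acid sensing by mTORC1, stands on 2 rows of the table. Of these 1 was at 22.2 FPKM in IB and 6.12 FPKM in VC (1.70) and the other at 4.07 FPKM in IB and 3.34 FPKM in VC (0.22). The counting may have split near-identical sequence, which was not tested.

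The genes with the largest ratios downward included many genes known from liver, gut and kidney epithelium. Cyp4a8, a fatty acid ω-hydroxylase, was at 4.36 FPKM in IB and 56.6 FPKM in VC (log2 ratio -3.43), and Cyp4f1 of the same enzyme family was at 0.231 FPKM in IB and 5.94 FPKM in VC (-2.50). Lgals2, a galectin of the gut, was at 2.12 FPKM in IB and 20.5 FPKM in VC (-2.78), and Ms4a8 was at 2.64 FPKM in IB and 24.1 FPKM in VC (-2.78). The brush border genes Calml4 (14.4 FPKM in IB and 81.2 in VC) and Espn, an actin bundling protein (0.528 in IB and 6.37 in VC), stood beside the mucin gene Muc13 (1.06 in IB and 8.01 in VC). Plasma protein genes were represented by Ambp, which encodes the precursor of bikunin, at 35.6 FPKM in IB and 154.4 FPKM in VC, and by Crp at 0.691 FPKM in IB and 5.22 FPKM in VC. A1cf, an RNA-binding cofactor of apolipoprotein B editing, was at 0.948 FPKM in IB and 8.24 FPKM in VC. Nr0b2, an orphan nuclear receptor that represses bile acid synthesis, was at 2.43 FPKM in IB and 14.0 FPKM in VC. Ddc, the decarboxylase that makes dopamine and serotonin, was at 1.83 FPKM in IB and 13.8 FPKM in VC. Many of these levels in IB lie near 1 FPKM, where the pseudocount makes the log2 ratio smaller than the ratio of the values themselves.

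**Figure D2:**
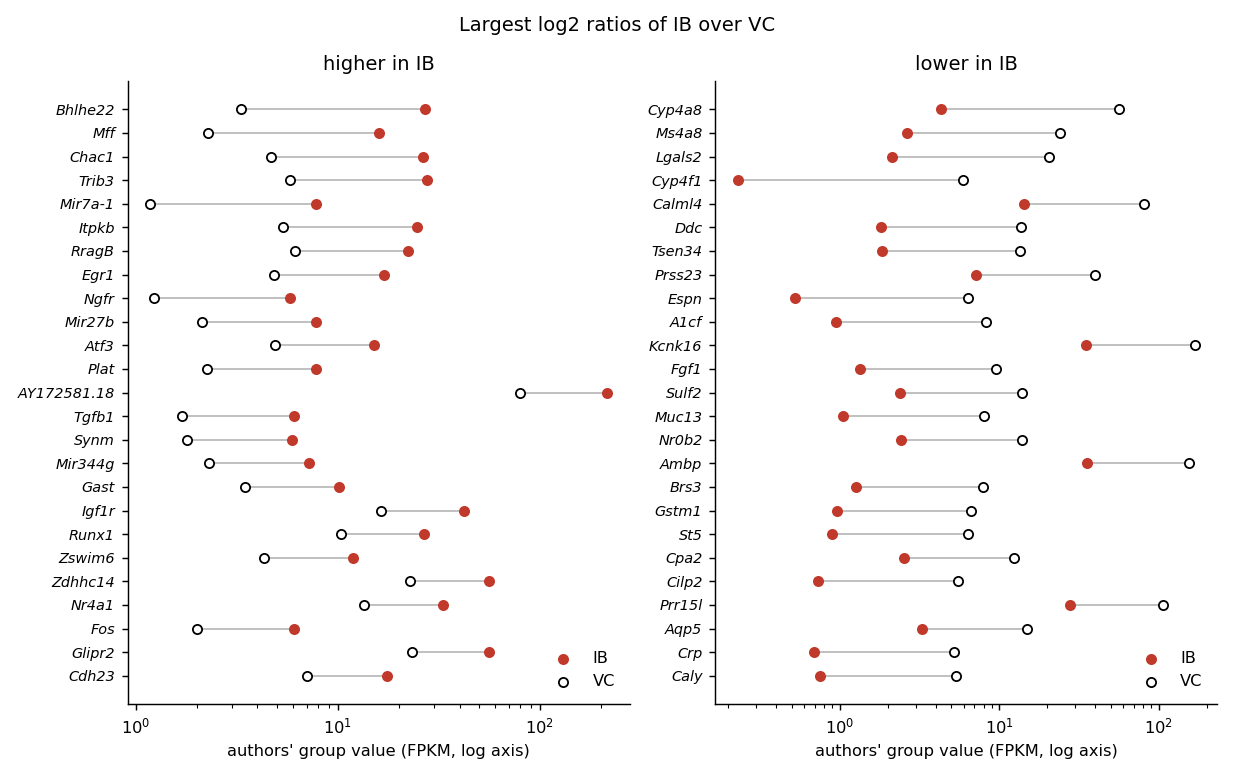
The 25 largest log2 ratios in each direction among named genes that reached 5 FPKM in IB or VC, with the group value in IB (filled) and VC (open) on a log axis of FPKM. Bhlhe22 (27.1 FPKM in IB and 3.30 in VC) heads the higher genes and Cyp4a8 (4.36 in IB and 56.6 in VC) the lower ones.

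Measured in fragments rather than ratios, the difference between the groups was largest for secretory genes. Ins1 on chromosome 1 (280213615 to 280214178, in the coordinates of the deposited table) was at 26722 FPKM in IB and 11528 FPKM in VC (log2 ratio 1.21), which is 11891 FPM in IB and 5129.8 FPM in VC. Chgb, the gene of chromogranin B, a granule protein, was at 12805 FPM in IB and 7105 FPM in VC. Together Ins1 and Chgb made up 14.9% of the summed FPM gained by the genes that were higher by any amount. Hspa5, the main chaperone of the endoplasmic reticulum, was at 1844 FPKM in IB and 1079.6 FPKM in VC (0.77). Iapp, the islet amyloid polypeptide, differed by 1502 FPM although its log2 ratio of 0.57 (5223 FPKM in IB and 3524 FPKM in VC) stayed under the criterion, which it passed after centring (0.61). On the other side, Eef1a1 (2462 FPM in IB and 3279.7 in VC), Rplp0 (2525 in IB and 3256 in VC) and Eef1g (1076 in IB and 1598 in VC) of the translation machinery and Gas6, a secreted ligand of TAM receptors (577.0 in IB and 1089 in VC), had the largest differences of nuclear genes, and they were named after their values were seen. Because FPKM are relative, a larger share for Ins1 and Chgb leaves a smaller share for all other genes. The listed genes took 86.8% of all fragments in IB and 86.2% in VC.

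Several genes of hormones and granule cargo were higher. Among 25 measured members 7 (28.0%) stood higher in IB, beside 4.96% of all genes, and 2 (8.00%) lower, beside 10.5%, and the median log2 ratio was 0.33, beside -0.04 for all genes. Besides Ins1, Gcg and Chgb, the higher ones were gastrin (Gast, 10.1 FPKM in IB and 3.46 in VC), cholecystokinin (Cck, 310.4 in IB and 147 in VC), the amidating enzyme of peptide hormones Pam (630.1 in IB and 387 in VC) and Ins2. Ins2 was at 86.5 FPKM in IB and 40.4 FPKM in VC. Its sequence is nearly that of Ins1, so these may be reads of Ins1, which was not tested. The lower members were Igfbp4, a binding protein of insulin-like growth factors (16.1 FPKM in IB and 43.2 in VC), and the neuropeptide gene Cartpt (2.52 in IB and 4.91 in VC). The zinc transporter of the granule, Slc30a8, was at 218 FPKM in IB and 246 FPKM in VC.

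The release machinery showed no common direction. Among 75 measured genes of exocytosis 6 stood higher (8.00%) and 5 lower (6.67%), near the shares of all genes, and their median of 0.03 became negative without a minimum level or with equal FPKM sums. Rab3a, a GTPase that tethers vesicles, was at 150.4 FPKM in IB and 92.3 FPKM in VC, and Rab3c at 44.7 FPKM in IB and 27.4 FPKM in VC. Rph3al, a Rab effector also called Noc2, was at 47.6 FPKM in IB and 101 FPKM in VC, the synaptotagmin Syt5 at 120.5 FPKM in IB and 185.9 FPKM in VC, and Cadps, which primes dense-core vesicles, at 6.18 FPKM in IB and 11.3 FPKM in VC. Among 28 genes from glucose entry to the KATP channel, 1 was higher (3.57%, beside 4.96% of all genes) and 5 lower (17.9%, beside 10.5%). The median was -0.05. The higher one was the glucose transporter Slc2a2 (435 FPKM in IB and 251.2 in VC). The lower ones included pyruvate kinase (Pklr, 32.1 in IB and 58.0 in VC), the glycerol phosphate dehydrogenase Gpd1 (105 in IB and 174 in VC), Pdk2 (7.23 in IB and 14.4 in VC) and Pfkfb3 (3.41 in IB and 5.98 in VC), so that Slc2a2 and these enzymes lay on opposite sides at rest. With cytokines Slc2a2 was at 207 FPKM in CCIB and 281 FPKM in CCVC (log2 ratio -0.44).

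The transcription factors of the β-cell lay in both directions. Of 28 measured members 3 were higher (10.7%, beside 4.96% of all genes), 3 lower (10.7%, near the 10.5% of all genes) and 22 neither. The median of -0.00 turned positive after centring or upper-quartile scaling. Mafa and Pdx1, activators of the insulin promoter, were at 316 and 248 FPKM in IB, against 192 and 156 FPKM in VC. Foxo1 was at 24.6 FPKM in IB and 15.9 FPKM in VC, while Mnx1 (47.4 in IB and 31.4 in VC) and Pax6 (189 in IB and 139.9 in VC) stayed under the criterion. Foxo1 (log2 ratio 0.60) and Mnx1 (0.58) lay on either side of it by little, since Foxo1 came under it with equal FPKM sums and Mnx1 passed it after centring (0.62). The lower factors included Hnf4a, at 12.9 FPKM in IB and 24.0 FPKM in VC, and Bhlha15, also called Mist1, at 10.3 FPKM in IB and 16.05 FPKM in VC. Nkx2-2, at 39.6 FPKM in IB and 55.4 FPKM in VC, and Nkx6-1, at 31.8 FPKM in IB and 34.3 FPKM in VC, passed neither way.

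A list of epithelial and liver-type genes, Hnf4a among them, had the lowest median among the lists with at least 20 measured members. Of 29 measured members 16 were lower and 0 higher (median -0.71), and 27 lay below 0. This list was partly built from genes already known to be lower in these data, so its count is no independent evidence. Beyond the genes above, the lower members included Kcnk16, the TALK-1 potassium channel of β-cells (35.1 FPKM in IB and 168.4 in VC), Vil1, the microvillar protein villin (14.7 in IB and 40.1 in VC), and Krt18, a simple-epithelial keratin (149 in IB and 339 in VC). Krt7, at 141.2 FPKM in IB and 153.3 FPKM in VC, and Epcam passed neither way. Hnf4g, a close paralogue of Hnf4a, was at 0.637 FPKM in IB and 1.31 FPKM in VC.

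Lists of receptors and channels held larger shares of lower genes than the 10.5% of all genes. Of 24 G-protein-coupled receptors of β-cells 12 were lower (50%) and 4 higher (16.7%, beside 4.96% of all genes), so both shares exceeded the background. The median of this list was -0.60 and became -0.28 with no minimum level and also with a minimum of 5 FPKM. Gpr119, a lipid receptor that raises cAMP, was at 21.96 FPKM in IB and 65.1 FPKM in VC. The melatonin receptor Mtnr1a was at 2.00 FPKM in IB and 9.74 FPKM in VC, the muscarinic receptor Chrm4 at 5.62 FPKM in IB and 15.6 FPKM in VC, and the calcium-sensing receptor Casr at 1.74 FPKM in IB and 6.83 FPKM in VC. The opposite direction held for the prostaglandin receptor Ptger3 (30.7 FPKM in IB and 14.4 in VC) and the cholecystokinin receptor Cckar (51.0 in IB and 26.4 in VC), whose ligand gene Cck was also higher. Of 34 potassium channel genes 12 were lower and 3 higher (median -0.25), among them the channel-interacting protein Kcnip3 (17.3 in IB and 58.4 in VC) and Kcna5 (2.01 in IB and 7.47 in VC). Of 34 calcium channel and pump genes 7 were lower and 2 higher (median -0.20, and -0.11 with a minimum of 5 FPKM), with Cacna1a, the pore of P/Q-type channels, at 12.03 FPKM in IB and 40.6 FPKM in VC. Of 37 sodium, chloride and ligand-gated channel genes 11 were lower and 2 higher (median -0.24, and -0.14 with a minimum of 5 FPKM). Solute carriers were closer to the background, with 14 of 140 lower and 7 higher. Many of these channels and receptors are expressed at low levels, where lower genes were more frequent in general.

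**Figure D3:**
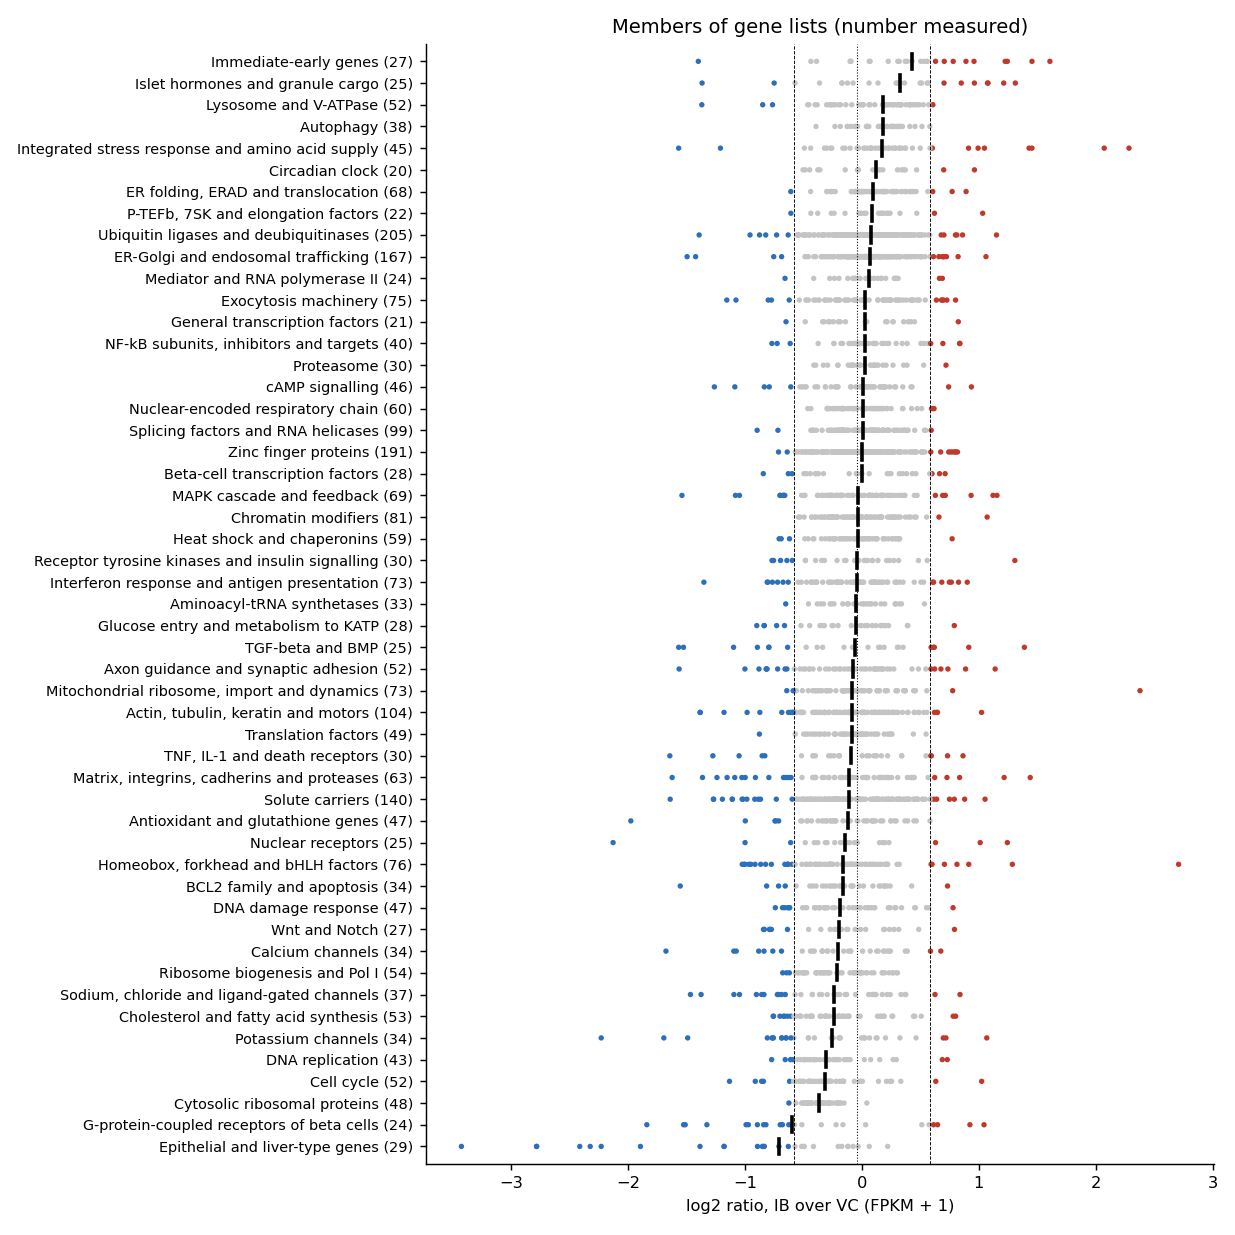
Log2 ratios of IB over VC (FPKM + 1) for the members of each list with at least 20 measured genes, sorted by the list median (black bar). Red and blue points passed 1.5-fold (dashed lines), the dotted line is the median of all genes (-0.04), and the medians run from 0.43 for immediate-early genes to -0.71 for epithelial and liver-type genes.

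Genes of the machinery that BET proteins act through mostly stayed under 1.5-fold, as did 84.6% of all genes, and some members passed. None of 7 measured BET proteins and partners passed 1.5-fold, with Brd3 at 29.5 FPKM in IB and 35.4 FPKM in VC, and Brd2 was not analysed here. Of 22 genes of P-TEFb, 7SK and elongation 2 were higher (9.09%, beside 4.96% of all genes) and 1 lower (4.55%, beside 10.5%). Hexim1, the inhibitor that holds P-TEFb in the 7SK complex, was at 37.8 FPKM in IB and 18.0 FPKM in VC (log2 ratio 1.03), while its paralogue Hexim2 was at 5.05 FPKM in IB and 8.22 FPKM in VC (-0.61). Ctr9, a subunit of the PAF complex, was at 55.0 FPKM in IB and 35.4 FPKM in VC. The P-TEFb kinase Cdk9 was at 63.2 FPKM in IB and 54.0 FPKM in VC. Of 13 histone genes 3 were higher (23.1%, beside 4.96% of all genes) and 0 lower. Their median of 0.26 became 0.11 with a minimum of 5 FPKM. Among the higher ones was H3f3b, which encodes a replication-independent histone and stands on more than 1 row. It was at 398 FPKM in IB and 223 FPKM in VC on the row that passed. Chromatin modifiers had 2 of 81 higher (2.47%) and 0 lower, with a median of -0.03 that turned positive after centring.

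Immediate-early genes had the highest median among the lists with at least 20 measured members. Of 27 measured members 9 were higher, against a background of 4.96%, and 1 was lower, with a median of 0.43. Egr1 was at 16.8 FPKM in IB and 4.85 FPKM in VC, Fos at 6.04 FPKM in IB and 2.01 FPKM in VC, Nr4a1 at 33.2 FPKM in IB and 13.4 FPKM in VC, and Junb at 87.8 FPKM in IB and 44.7 FPKM in VC. These encode transcription factors that growth factors and calcium switch on within minutes. The 1 lower member was Myc, at 8.64 FPKM in IB and 24.4 FPKM in VC (-1.40). Phosphatases and Sprouty-type inhibitors in the list of the MAPK cascade and its feedback lay in both directions, and not all of these phosphatases are feedback inhibitors. The higher ones were the phosphatases Dusp6 (18.0 FPKM in IB and 7.75 in VC) and Dusp4 (38.6 in IB and 19.7 in VC) and the Ras-pathway inhibitors Spry1 (9.22 in IB and 3.59 in VC), Spry2 (7.16 in IB and 4.06 in VC) and Spred1 (9.83 in IB and 6.01 in VC). Over the 69 measured genes of the MAPK cascade, 6 were higher and 8 lower, and the lower ones included the phosphatases Dusp26 (0.693 in IB and 3.92 in VC), Dusp23 (17.7 in IB and 38.6 in VC), Dusp3 (log2 ratio -0.70) and Dusp15 (-0.70) and the Sprouty gene Spry3 (0.756 in IB and 2.63 in VC).

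Stress-response genes were higher at rest in part. Among 45 genes of the integrated stress response and amino acid supply, 8 passed upward (17.8%, beside 4.96% of all genes) and 2 downward (4.44%, beside 10.5%), and the median was 0.17. Besides Chac1 and Trib3 the higher genes included Atf3 (15.2 FPKM in IB and 4.90 in VC), Ddit3, which encodes CHOP (64.5 in IB and 30.7 in VC), and the mTORC1 inhibitor Ddit4 (11.1 in IB and 5.10 in VC). Gdf15, a secreted stress cytokine, went the other way, at 6.35 FPKM in IB and 20.8 FPKM in VC. Of 68 genes of folding in the endoplasmic reticulum 3 were higher and 1 lower, with Ero1lb, an oxidase that serves proinsulin folding, at 78.0 FPKM in IB and 41.6 FPKM in VC. Autophagy genes had a median of 0.18 and none of 38 passed 1.5-fold, and lysosomal genes had the same median with 1 of 52 higher and 3 lower.

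Ribosomal protein and proliferation genes mostly lay below 0 by small amounts that seldom reached the criterion. Of 48 measured cytosolic ribosomal protein genes 47 lay below 0, with a median of -0.37 and 1 past 1.5-fold. Their sum was 18582 FPM in IB and 23899 FPM in VC. Of 52 cell cycle genes 44 lay below 0 (median -0.32), with 5 lower (9.62%, beside 10.5% of all genes) and 2 higher. Ccna2, the cyclin of S phase, was at 59.1 FPKM in IB and 91.3 FPKM in VC. Genes that restrain the cycle lay in both directions. Cdkn1a, an inhibitor of cyclin-dependent kinases, was at 15.4 FPKM in IB and 28.7 FPKM in VC, and Ccng1 at 59.5 FPKM in IB and 113 FPKM in VC. The antiproliferative gene Btg1 was at 330.7 FPKM in IB and 178 FPKM in VC, and E2f5, which encodes a repressor of the E2F family, at 13.6 FPKM in IB and 6.19 FPKM in VC. Of 43 DNA replication genes 36 lay below 0 (median -0.31). The mitochondrially encoded genes, which made up 86025 FPM in IB and 82061 FPM in VC, had none of 11 past 1.5-fold.

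Inflammatory genes were split in these cells that had received no cytokine. Of 73 genes of the interferon response and antigen presentation 7 were higher and 7 lower (9.59% each way), and of 40 NF-κB genes 4 were higher and 3 lower (10.0% and 7.50%), beside 4.96% higher and 10.5% lower over all genes, the medians being -0.04 and 0.02, the second of which became negative with equal FPKM sums. Rsad2 was at 31.7 FPKM in IB and 16.5 FPKM in VC, Ifit1 at 42.7 FPKM in IB and 23.6 FPKM in VC, and the MHC class I gene RT1-A1 at 431 FPKM in IB and 268 FPKM in VC. Bst2 (39.2 FPKM in IB and 69.4 in VC) and Mx2 (16.2 in IB and 29.1 in VC) were lower. The death ligand Tnfsf10, or TRAIL, was at 2.65 FPKM in IB and 10.4 FPKM in VC. The proapoptotic gene Bcl2l11, or Bim, was at 19.97 FPKM in IB and 11.6 FPKM in VC, the only higher one of 34 genes of the BCL2 family and apoptosis, in which 4 were lower (2.94% and 11.8%, near the shares of all genes).

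Lipid and redox genes were called about as often as all genes, of which 10.5% were lower and 4.96% higher. Of 53 genes of cholesterol and fatty acid synthesis 7 were lower (13.2%) and 2 higher (3.77%), with a median of -0.24. Hmgcs1, the synthase that starts the sterol pathway, was at 25.1 FPKM in IB and 43.2 FPKM in VC, and the desaturase Fads2 was at 129 FPKM in IB and 219 FPKM in VC. Acss2, which makes acetyl-CoA from acetate, was higher at 36.2 FPKM in IB and 20.3 FPKM in VC. Of 47 antioxidant and glutathione genes 5 were lower (10.6%) and 0 higher, and Gstm1 was at 0.960 FPKM in IB and 6.72 FPKM in VC.

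Developmental regulators were called more often than all genes in both directions. The list of homeobox, forkhead and basic helix-loop-helix genes also holds genes of other families, such as Runx1 and Gata3. Of its 76 measured members 14 were lower (18.4%, beside 10.5% of all genes) and 7 higher (9.21%, beside 4.96%), with a median of -0.16. Shares also varied with level. Of all genes with a mean of 2 to 5 FPKM 21.8% were lower and 8.12% higher, and at 5 to 10 FPKM 13.9% and 7.48%. The part of level in the shares of this list was not tested. Apart from Bhlhe22 and Runx1 the higher ones included Id4, an inhibitor of helix-loop-helix factors (80.8 FPKM in IB and 42.4 in VC), and the lower ones included Lhx8 (8.42 in IB and 17.8 in VC), Gata3 (4.11 in IB and 8.99 in VC) and Hoxc9 (3.50 in IB and 7.70 in VC). Of 25 nuclear receptor genes 3 were higher and 3 lower. The vitamin D receptor Vdr was at 19.5 FPKM in IB and 9.18 FPKM in VC, while the retinoic acid receptor Rara was at 6.41 FPKM in IB and 13.8 FPKM in VC. Zinc finger genes held 8 higher and 2 lower of 191, and their median of -0.00 turned positive after centring or upper-quartile scaling.

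Paracrine signals were divided. Of 25 genes of TGF-β and BMP signalling 5 were higher (20%, beside 4.96% of all genes) and 7 lower (28.0%, beside 10.5%). The ligand Bmp3 was at 10.4 FPKM in IB and 31.8 FPKM in VC, opposite to Tgfb1, and the type I receptor Tgfbr1 was at 8.22 FPKM in IB and 5.03 FPKM in VC. Of 27 Wnt and Notch genes 1 was higher and 6 lower (22.2%, beside 10.5% of all genes), with a median of -0.19 that became -0.09 with no minimum level. The ligand Wnt4 was at 18.1 FPKM in IB and 33.0 FPKM in VC, and the Notch glycosyltransferase Mfng at 27.1 FPKM in IB and 49.5 FPKM in VC. Among receptors of growth factors and hormones, Igf1r was higher and its relative Insr, the insulin receptor, lower. Insr was at 4.18 FPKM in IB and 7.40 FPKM in VC, and the prolactin receptor Prlr at 13.6 FPKM in IB and 23.9 FPKM in VC.

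Structural and trafficking genes lay on both sides. Of 104 measured actin, tubulin, keratin and motor genes 10 were lower (9.62%) and 4 higher (3.85%), near the 10.5% and 4.96% of all genes, with the actin-severing protein gelsolin (Gsn) at 31.2 FPKM in IB and 14.8 FPKM in VC and the apical recycling motor Myo5b at 1.41 FPKM in IB and 3.41 FPKM in VC. Of 63 genes of the matrix, integrins, cadherins and proteases 14 were lower (22.2%) and 5 higher (7.94%), with a median of -0.11. The collagen gene Col6a2 was at 2.57 FPKM in IB and 9.99 FPKM in VC, the heparan sulfate core gene Gpc4 at 21.8 FPKM in IB and 45.5 FPKM in VC, and Sdc4, a syndecan, at 46.1 FPKM in IB and 25.4 FPKM in VC. In trafficking, 8 of 167 genes were higher and 4 lower. The lower ones included the epithelial adaptor subunit Ap1m2 (13.6 FPKM in IB and 38.3 in VC) and the junctional GTPase Rab13 (2.60 in IB and 9.14 in VC). Ubiquitin ligases and deubiquitinases held 6 higher and 6 lower of 205, with Usp11 at 16.5 FPKM in IB and 6.89 FPKM in VC.

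The share of genes past 1.5-fold varied with level and with gene size. Lower genes made up 25.2% of genes with a mean of 1 to 2 FPKM and 3.80% of those at 100 FPKM and over, while the share of higher genes was 7.31% and 3.15% at the same levels. Over the genomic span of protein-coding genes the share of higher genes was 10.6% under 2 kb, 3.41% at 20 to 50 kb and 7.27% at 200 kb and over. The share of lower genes was 12.6%, 9.31% and 15.8% in the same bins. Low values carry more counting error, and the part of this error in the shares was not tested. The shares given above for the gene lists were not adjusted for level.

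**Figure D4:**
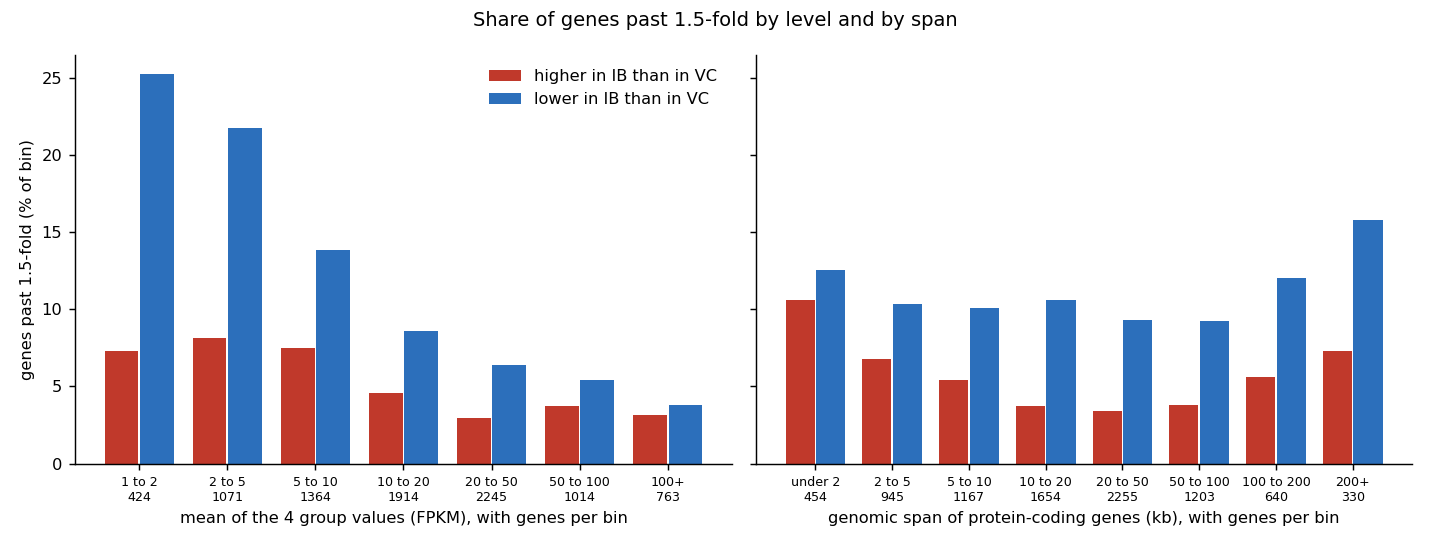
Percentage of genes in each bin that were higher (red) or lower (blue) in IB than in VC at 1.5-fold, by mean level in FPKM (left) and by genomic span in kb (right), with the number of genes under each bin. The lower share is 25.2% in the bin of lowest level and 3.80% in the highest, and both shares are larger at the ends of the span axis than in its middle.

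Some lower genes stood next to each other among the measured genes of a chromosome. Among 8573 pairs of adjacent measured genes, the neighbours of a lower gene were lower in 14.0%, against 10.4% of all genes, and those of a higher gene were higher in 7.09%, against 4.96%. There were 13 runs of at least 3 adjacent lower genes and no such run of higher ones. The larger share of lower genes makes such runs more frequent by itself, and the number set by the shares was not computed. Genes outside the measured set may lie between neighbours. The median gap was 75.6 kb for pairs both lower, 25.7 kb for pairs both higher and 52.9 kb over all pairs. The run on chromosome 5 from 137687648 to 138139527 in the deposited coordinates held 4 genes. In it Pdzk1ip1, a membrane protein of epithelia, was at 198.7 FPKM in IB and 469.2 FPKM in VC, Cyp4x1 at 0.853 FPKM in IB and 4.85 FPKM in VC, and Faah, which degrades endocannabinoids, at 1.20 FPKM in IB and 3.29 FPKM in VC, beside Cyp4a8. These neighbours were named after their values were seen.

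Short RNA features gave few values. Of 22 features annotated as miRNA 8 were higher (36.4%, beside 4.96% of all genes) and 3 lower (13.6%, beside 10.5%). The hairpin of Mir7a-1 was at 7.80 FPKM in IB and 1.18 FPKM in VC, and that of Mir27b at 7.78 FPKM in IB and 2.13 FPKM in VC. The mature forms are shown because miR-7 is abundant in islets and both lie on chromosome 17, with the seed (bases 2 to 8) in capitals, from RefSeq in GRCr8.
rno-miR-7a-5p: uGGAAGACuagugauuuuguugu
rno-miR-27b-3p: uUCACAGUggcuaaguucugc
Their seeds differ. The libraries were made from RNA fragments that are longer than mature miRNAs, so these values count fragments over features of 97 bases and not mature miRNA. Among 10 mitochondrial tRNA features 5 were lower (50%, beside 10.5% of all genes) and 1 higher (10%, beside 4.96%).

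The effect of I-BET762 at rest was set beside its effect in cytokine-exposed cells, a comparison that shares no library with it. Over 8795 genes the log2 ratio of CCIB to CCVC and that of IB to VC had a Pearson correlation of 0.755 and a Spearman correlation of 0.776, given as a description since genes are not independent, and 80.7% of genes had the same sign. With cytokines 299 genes were higher (3.4%) and 1022 lower (11.6%). Of the 921 lower genes 616 (66.9%) were also lower in CCIB than in CCVC, 904 had the same sign and 1 was higher, and their median log2 ratio with cytokines was -0.73. Of the 436 higher genes 164 (37.6%) were also higher with cytokines, 390 had the same sign and 11 were lower, and their median with cytokines was 0.49.

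Genes that passed in both states included the extremes of each direction. Bhlhe22 was at 11.6 FPKM in CCIB and 1.86 FPKM in CCVC, Mff at 7.57 FPKM in CCIB and 1.84 FPKM in CCVC, and Cyp4a8 at 5.51 FPKM in CCIB and 40.5 FPKM in CCVC. Some stress-response genes that passed at rest did not pass with cytokines. Chac1 was at 61.1 FPKM in CCIB and 71.8 FPKM in CCVC, and Trib3 at 67.1 FPKM in CCIB and 80.6 FPKM in CCVC, so that their levels in both cytokine groups lay above those at rest. Over the stress-response list the median was 0.17 at rest and -0.27 with cytokines, and over immediate-early genes it was 0.43 and 0.03. Egr1 was at 2.67 FPKM in CCIB and 1.62 FPKM in CCVC, and Nr4a1 at 3.60 FPKM in CCIB and 3.53 FPKM in CCVC, below their levels at rest. Aldh18a1, an enzyme of proline synthesis, had opposite calls, at 4.26 FPKM in IB and 0.952 FPKM in VC, but 0.996 FPKM in CCIB and 9.98 FPKM in CCVC. Pdgfb, chosen after its values were seen, was the 1 lower gene that was higher with cytokines, at 1.248 FPKM in IB and 2.67 FPKM in VC and at 11.5 FPKM in CCIB and 5.19 FPKM in CCVC. Whether any of these differences between the states exceeds the spread over libraries was not tested, since no library values are in the table.

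**Figure D5:**
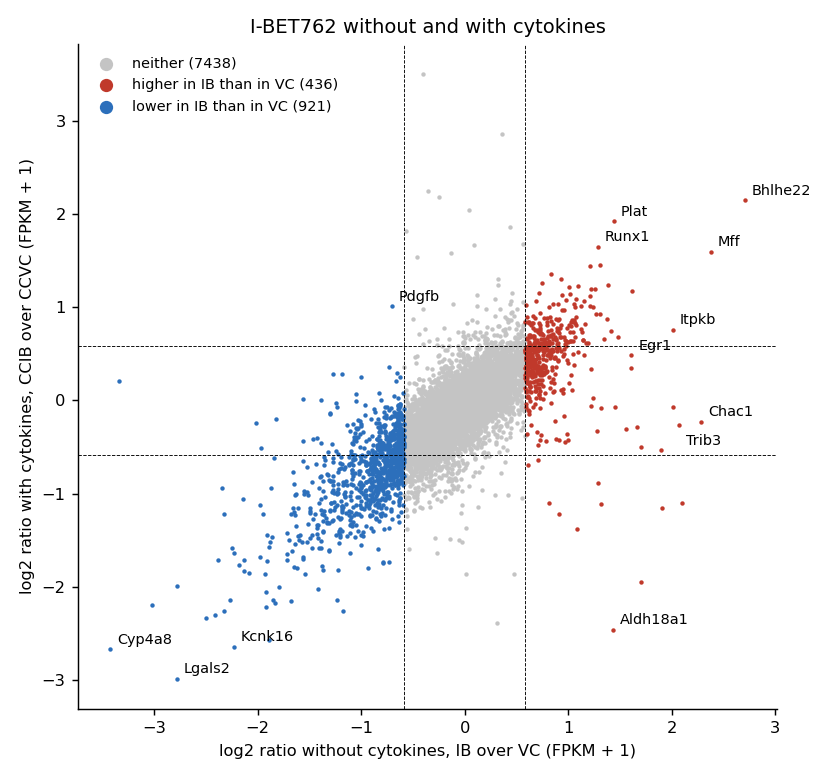
Each point is 1 of 8795 genes, with the log2 ratio of IB over VC on the x axis and that of CCIB over CCVC on the y axis (FPKM + 1), coloured by the call at rest. Dashed lines mark 1.5-fold. Most lower genes lie in the lower left, where 616 of 921 passed in both states, while Chac1, Trib3 and Egr1 passed at rest alone.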

How the data were processed

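The 4 groups of INS-1 cells gave 12 libraries, 3 per group, made with a NEBNext Ultra kit. Depth per library is not given in the values used. Reads were aligned with HISAT2, of which no version is stated, and the authors then computed the deposited FPKM values. These form 1 column per group, with 0 columns of single libraries, over 9694 genes that had passed an adjusted p of 0.05 in the authors' own comparisons. The genome build is not given in the sources used here. Log2 ratios of IB over VC were taken after adding 1 FPKM, for 8795 genes whose 4 group values averaged 1 FPKM or more, and those reaching 1.5-fold were counted. No test was possible. FPM is FPKM times gene length in kilobases. The members and the 61 gene lists were chosen with earlier results of these data known. Named genes are the 25 largest log2 ratios each way among genes with a symbol that reached 5 FPKM in IB or VC, up to 6 members per list past 1.5-fold each way (otherwise the most abundant member), and all BET, P-TEFb, β-cell factor and hormone genes. Any other gene named was chosen after its values were seen. Results for some genes of this rule are not reported here. Unnamed rows (5), numeric names (18) and repeated names (39) were left as deposited. Sequences were matched by symbol or synonym to RefSeq tables of GRCr8, whose coordinates were not mixed with those deposited. Alternatives were another pseudocount, minimum, scaling or criterion. Python 3.11.15, numpy 2.4.6, pandas 2.3.3 and matplotlib 3.10.9 were used.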

Additional observations from a re-analysis of the deposited data

How the results depend on the processing

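No single library values are in the table, so leaving out a library and the fit with a replicate block were not run. No paired analysis was possible because the table has 1 column per group, although IB and VC share 2 replicate numbers. The number of lower genes was 581 with a minimum mean of 5 FPKM, against 921, while that of higher genes stayed within 1.5 times of 436. The looser criterion gave 1333 higher and 2194 lower genes, and the 2-fold criterion gave 81 and 291. Under a pseudocount of 0.1, no minimum, a minimum on IB and VC only, centring, upper-quartile scaling and equal FPKM sums, both counts stayed within 1.5 times of 436 and 921, and lower genes outnumbered higher ones in all 9 alternatives. The median of 48 of 61 lists kept its sign in all 7 alternatives run for it, and 13 had another sign in at least 1, all with a median near 0. None of the 424 named genes reversed past the criterion, but 20 of them crossed it on centring, 23 with equal FPKM sums, 12 with upper-quartile scaling and 3 with a pseudocount of 0.1. Group values without error, a table limited to genes the authors called, and relative units set how far these numbers can be read.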
